A study of Homo sapiens with 6 samples.

Results

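CYP1A1 and AHRR are textbook target genes of the aryl hydrocarbon receptor, and both were listed as lower in LX2 cells given GDF15 than in untreated cells. They are 2 of the 453 features in the authors' deposited table of GDF15 against untreated and were found there by gene name. Both were selected on their measured difference between these groups, since every feature of that table has an unadjusted p under 0.05. The values of this contrast are therefore given as a description, with no test. LX2 is an immortalised line derived from human hepatic stellate cells, the vitamin A-storing liver cells that turn into matrix-producing myofibroblasts upon injury. GDF15 is a hormone of the TGF-beta superfamily that many stressed cells release. One group held 3 libraries of LX2 cells treated with recombinant GDF15 (1 ug/ml, 24 h), and the other held 3 libraries of untreated LX2 cells. The measurement was RNA sequencing of poly(A)-selected transcripts, and the labels name no aryl hydrocarbon receptor ligand for either group. Nothing in the labels tells separate cultures from repeat preparations of the same culture, so the spread within a group may be technical.

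The aryl hydrocarbon receptor, AHR, is a transcription factor of the bHLH-PAS family that waits in the cytosol with the chaperone HSP90. Planar aromatic compounds such as dioxins, and some products of tryptophan breakdown, bind it and send it to the nucleus, where it pairs with ARNT and binds DNA elements with the core letters GCGTG. CYP1A1, a cytochrome P450, oxidises many of these ligands and so helps to clear them, and its transcript is the usual readout of the receptor's activity. AHRR, the aryl hydrocarbon receptor repressor, is a bHLH-PAS protein that competes with AHR for ARNT and for the same DNA elements, and its induction by AHR closes a feedback loop.

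CYP1A1 (ENSG00000140465) lies on GRCh38 chromosome 15, 74719542 to 74725610, minus strand, and its longest annotated transcript in GENCODE 29 has 2685 bases in 7 exons. Its neighbour CYP1A2, a P450 gene best known from hepatocytes, starts 23234 bases away on the other strand and was not among the listed features. AHRR (ENSG00000063438) lies on chromosome 5, 304176 to 438291, plus strand, and its longest transcript has 5661 bases in 12 exons. The AHRR gene body overlaps that of PDCD6, a calcium-binding protein gene on the same strand, over 49681 bases, and their annotated exons share 244 bases, or 3.18% of the AHRR exon bases. Reads from those shared bases cannot be assigned to either gene by position alone. Processed pseudogenes lie inside the AHRR gene and share 0 of its exon bases. No annotated gene overlapped the gene body of CYP1A1.

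The windows of 250 bases before each annotated RefSeq start (GRCh38.p14) are shown because both genes are known to be read through GCGTG elements and both were listed in the same direction. Capitals mark GCGTG, searched on both strands.
CYP1A1, chr15:74725529-74725778, minus strand: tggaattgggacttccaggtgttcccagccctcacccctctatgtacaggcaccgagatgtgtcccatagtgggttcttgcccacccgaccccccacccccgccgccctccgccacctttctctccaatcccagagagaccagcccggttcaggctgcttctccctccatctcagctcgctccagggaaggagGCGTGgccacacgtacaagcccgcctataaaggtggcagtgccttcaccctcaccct
AHRR, start at 321714, chr5:321464-321713, plus strand: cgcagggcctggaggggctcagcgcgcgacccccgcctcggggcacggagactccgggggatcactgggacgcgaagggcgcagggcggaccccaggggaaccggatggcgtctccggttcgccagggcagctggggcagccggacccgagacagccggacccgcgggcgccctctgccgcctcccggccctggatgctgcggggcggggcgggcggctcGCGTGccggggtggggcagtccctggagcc
AHRR, start at 322610, chr5:322360-322609, plus strand: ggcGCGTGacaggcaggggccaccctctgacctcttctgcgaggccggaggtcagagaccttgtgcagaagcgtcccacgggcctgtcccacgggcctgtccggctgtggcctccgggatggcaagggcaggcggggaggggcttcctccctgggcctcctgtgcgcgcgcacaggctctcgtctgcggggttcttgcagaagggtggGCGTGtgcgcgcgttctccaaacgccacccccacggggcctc
The CYP1A1 window held 1 GCGTG, 53 to 57 bases before the start. The AHRR window of the first start held 1, 26 to 30 bases before it, and that match also read TNGCGTG, a longer form of the same core. The window of the second AHRR start held 2, at 243 to 247 and 38 to 42 bases before it. Of 35116 such windows of 27305 genes, 32.2% held at least 1 GCGTG and 4.52% held TNGCGTG, while 10.2% held 2 or more GCGTG. Of 172 windows of 123 genes among the lower features, CYP1A1 and AHRR included, 42.4% held GCGTG and 7.56% held TNGCGTG. The difference from the shares over all windows was not tested. The AHRR windows had a GC content of 79.2% and 71.2% and the CYP1A1 window 62.4%, above the median of 58.0% over all windows. A match is a description of letters and not evidence of a bound site, and the well-studied elements of CYP1A1 lie farther upstream than this window. The annotated AHRR gene begins upstream of both RefSeq starts. The annotated CYP1A1 gene also begins upstream of its RefSeq start, at 74725610 on the minus strand, which is inside the window shown. The GCGTG of the CYP1A1 window therefore lies within the annotated gene and not upstream of it.

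The table gave values for these genes of the pathway and for no others of the lists. Of 55 AHR pathway genes in 8 lists, CYP1A1 was 1 of 4 phase I target genes and AHRR was 1 of 2 feedback regulators, the other being TIPARP, an enzyme gene whose product modifies and dampens AHR. Of the other 53 genes, 0 were listed, and they were not analysed here. These included the 10 genes of the receptor complex with AHR and ARNT, the 6 phase II target genes with NQO1 and ALDH3A1, 8 other induced genes, 10 genes of ligand metabolism with IDO1 and TDO2, 12 other bHLH-PAS genes and 3 electron donor genes with POR, which passes electrons to P450 enzymes. CYP1B1, a related P450 gene that AHR also induces, was among the unlisted genes. The authors listed 453 features in all, beside 27305 genes with a promoter window, so most genes of any kind were unlisted. Absence from the list is therefore no sign that a gene was unchanged.

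CYP1A1 had 194, 165 and 144 normalized counts in GDF15 replicates 1, 2 and 3. It had 186, 463 and 397 normalized counts in untreated replicates 1, 2 and 3. A normalized count is the deposited value of a gene in a library after the authors' scaling. Untreated replicates 2 and 3 stood high, and untreated replicate 1 lay inside the range of the GDF15 libraries, so the groups overlapped. Group means were 168 ± 25.3 (GDF15) and 349 ± 145 (untreated) normalized counts (SD, n = 3), and the GDF15 mean was 2.08-fold lower. The coefficient of variation of CYP1A1 was 41.6% among the untreated libraries and 15.1% among the GDF15 libraries. The medians over the listed features were 24.6% and 17.2%. In the untreated group 381 of the 453 listed features had a smaller one than CYP1A1. In bulk RNA, fewer cells making a transcript and less of it per cell cannot be told apart.

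AHRR had 485, 467 and 482 normalized counts in GDF15 replicates 1, 2 and 3. It had 516, 588 and 861 normalized counts in untreated replicates 1, 2 and 3. The GDF15 libraries lay close together, all below the untreated ones, and untreated replicate 3 stood high. The gap between the highest GDF15 library and untreated replicate 1 was 31.2 normalized counts. Group means were 478 ± 9.52 (GDF15) and 655 ± 182 (untreated) normalized counts (SD, n = 3), and the GDF15 mean was 1.37-fold lower. The coefficient of variation of AHRR was 1.99% among the GDF15 libraries, beside a median of 17.2% over the listed features. In that group 9 of the 453 listed features had a smaller one. Such closeness rests on 3 values, and listing at an unadjusted p under 0.05 favours features with a small spread within groups. Among the untreated libraries the coefficient of variation of AHRR was 27.8%, beside a median of 24.6% over the listed features.

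**Figure D1:**
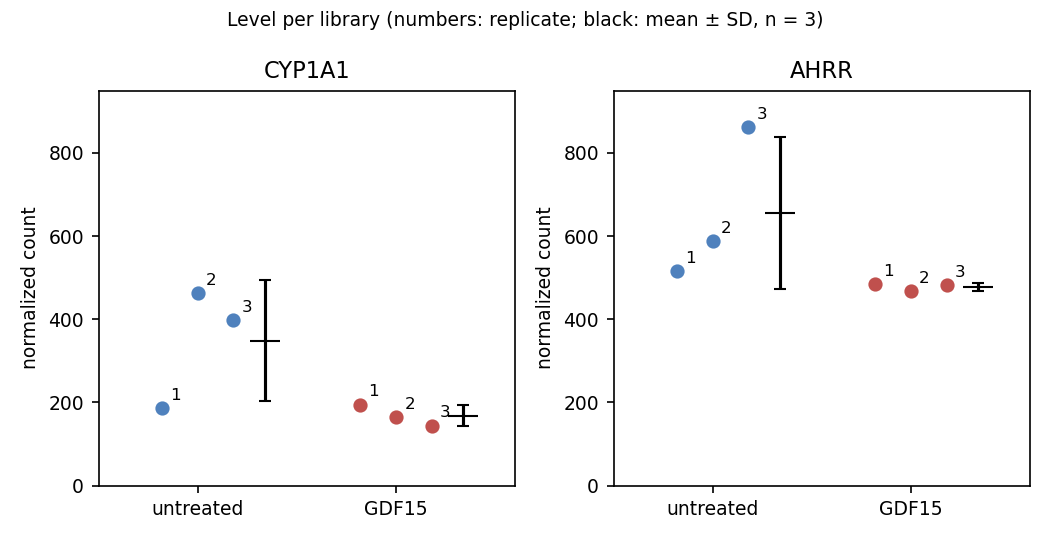
Normalized counts of CYP1A1 (left) and AHRR (right) in each of 3 untreated and 3 GDF15 libraries, with replicate numbers beside the points and the mean ± SD of each group in black. For CYP1A1, untreated replicate 1 at 186 sits among the GDF15 libraries, while for AHRR all GDF15 libraries sit between 467 and 485, below every untreated library.

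In the authors' deposited table the log2 fold change of GDF15 over untreated was -1.06 for CYP1A1, with an unadjusted p of 0.00117, and -0.46 for AHRR, with an unadjusted p of 0.0397. The adjusted p of the authors' deposited table was 0.911 for both, as for every listed feature. Of the 453 listed features, 0 or 0% were lower at an adjusted p under 0.05, and 179 or 39.5% were lower at an unadjusted p under 0.05. Ranked by the p of the authors' deposited table, CYP1A1 was at 3 and AHRR at 130 of the 179 lower features. CYP1A1 was 1 of 17 features, 3.75% of those listed, with a mean at least 2-fold lower, and AHRR was not. AHRR was 1 of 138 features, 30.5% of those listed, that were lower without overlap between the groups, and CYP1A1 was not. These 138 were 77.1% of the 179 lower features. Limma on log2(normalized count + 1), fitted to all listed features, gave log2 fold changes of -0.96 ± 0.36 for CYP1A1 and -0.42 ± 0.24 for AHRR (SE). The SEs draw in part on the spread of the other listed features, which were selected on this same contrast, so they are a description.

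The untreated libraries differed in which of the genes they held high. The ratio of CYP1A1 to AHRR normalized counts was 0.401, 0.353 and 0.299 in GDF15 replicates 1, 2 and 3. It was 0.359, 0.787 and 0.461 in untreated replicates 1, 2 and 3. Untreated replicate 2 had the highest ratio and the highest CYP1A1, whereas untreated replicate 3 had the highest AHRR, and untreated replicate 1 lay within the GDF15 range. The mean ratio was 0.351 ± 0.0510 with GDF15 and 0.536 ± 0.224 without (SD, n = 3), and the groups overlapped. On the log2 scale the group means of the ratio were -1.52 and -0.98, a difference of -0.54, with SDs of 0.21 and 0.58. This difference does not depend on scaling by a single factor per library, since both genes of a library would share that factor.

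Levels of the genes were compared per kilobase of annotated exon. CYP1A1 had 48.9 ± 7.37 normalized counts per kilobase with GDF15 and 102 ± 42.3 without (SD, n = 3). AHRR had 62.3 ± 1.24 with GDF15 and 85.4 ± 23.7 without (SD, n = 3). The ratio of these levels per kilobase ran from 0.668 to 0.896 in the GDF15 libraries and from 0.803 to 1.76 in the untreated ones. CYP1A1 was below AHRR per kilobase in all 3 GDF15 libraries and in untreated replicate 1 by this length. With the longest transcript as the length in place of all exon bases, a choice added after the values were seen, the mean ratio per kilobase was 0.740 with GDF15 and 1.13 without. By that length CYP1A1 was also below AHRR in untreated replicate 3, at a ratio of 0.973 in place of 1.03.

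**Figure D2:**
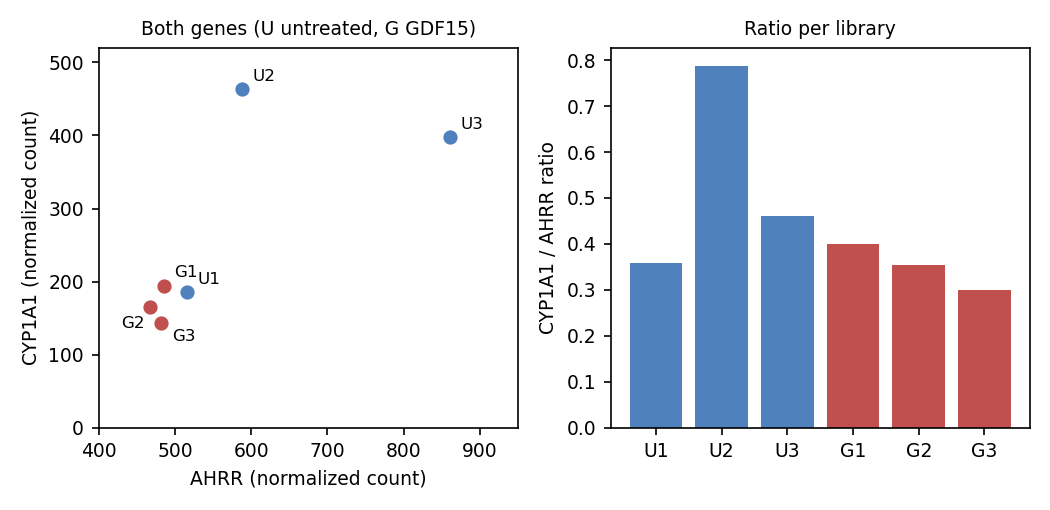
Left, CYP1A1 against AHRR in the 6 libraries, in normalized counts (U untreated, G GDF15, with the replicate number). Right, the ratio of CYP1A1 to AHRR normalized counts in each library, where untreated replicate 2 reaches 0.787 and the other libraries lie between 0.299 and 0.461.

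The group differences were recomputed without each library in turn. With 6 libraries the CYP1A1 log2 ratio of means was -1.05. It became -0.80 once untreated replicate 2 was dropped and -1.36 once untreated replicate 1 was dropped. The groups of CYP1A1 no longer overlapped without untreated replicate 1, at 168 against 430.4 normalized counts, or without GDF15 replicate 1, at 155 against 349. The AHRR log2 ratio of means was -0.45 over the 6 libraries. Dropping untreated replicate 3 brought it to -0.21, with means of 478 and 552 and a 1.16-fold lower mean with GDF15, and dropping untreated replicate 1 brought it to -0.60. Leaving out a GDF15 library moved AHRR only between -0.47 and -0.44, and CYP1A1 between -1.17 and -0.96. For the ratio of both genes the difference of group means on the log2 scale became -0.22 when untreated replicate 2 was dropped and -0.79 when untreated replicate 1 was. The direction was lower with GDF15 in each of these cases, which the listing of the genes as lower already favours.

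**Figure D3:**
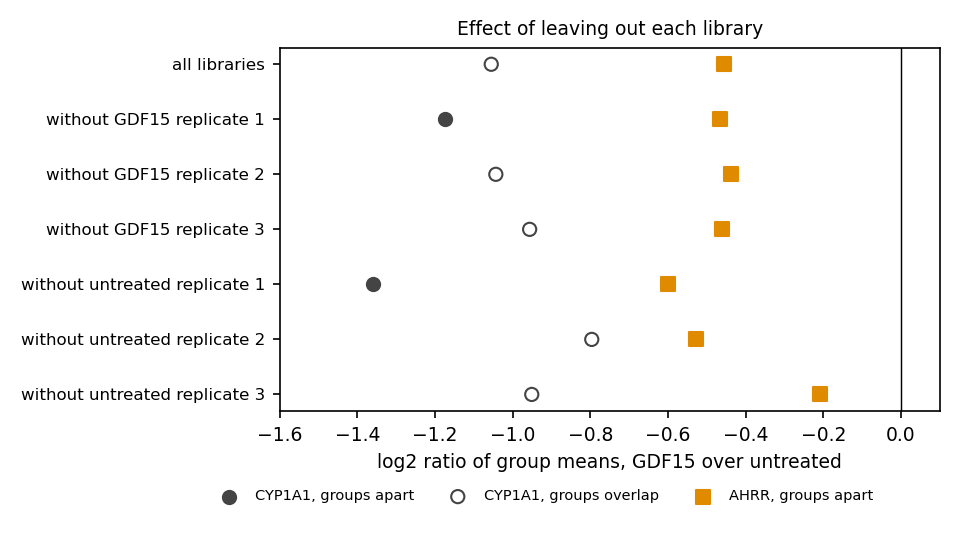
Log2 ratio of group means of CYP1A1 (circles) and AHRR (squares) with all libraries and without each library in turn; open symbols mark overlapping groups and the vertical line marks no difference. CYP1A1 runs from -1.36 to -0.80 and AHRR from -0.60 to -0.21, with the smallest AHRR difference when untreated replicate 3 is left out.

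The extreme libraries of CYP1A1 and AHRR were compared with those of the other lower features. Untreated replicate 2, the highest library of CYP1A1, was the highest of 154 of the 179 lower features. Untreated replicate 3, the highest library of AHRR, was the highest of 14 of them. GDF15 replicate 1 was the lowest library of 92 lower features, although it was the highest GDF15 library for both CYP1A1 and AHRR. Untreated replicate 1 was the lowest untreated library of 106 lower features, CYP1A1 and AHRR included. Of the 41 lower features whose groups overlapped, 28 did so with untreated replicate 1 as their lowest untreated library, and CYP1A1 was one of them. Without both GDF15 replicate 1 and untreated replicate 2, a choice added after the values were seen, the log2 ratio of means was -0.91 for CYP1A1 and -0.54 for AHRR.

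The order of the libraries by AHRR nearly followed the scaling of the libraries. All values of a library were whole multiples of a single step, 1.03, 1.12 and 1.11 in GDF15 replicates 1, 2 and 3 and 1.04, 0.948 and 0.792 in untreated replicates 1, 2 and 3. A step would be the value of 1 count if the authors divided counts by a single factor per library. That reading was not established, since the steps were found from the listed values alone and the lowest listed value above 0 was from 1 to 4 steps. The libraries with the smallest steps, untreated replicates 2 and 3, held the highest levels of both genes, and untreated replicate 1 and GDF15 replicate 1, whose steps were nearly equal, had nearly equal CYP1A1. AHRR was highest at the smallest step, and its lowest value was in the library with the largest step. Expressed in whole steps, AHRR had 469, 416 and 435 in the GDF15 libraries and 498, 621 and 1088 in the untreated libraries. CYP1A1 had 188, 147 and 130 whole steps with GDF15 and 179, 489 and 502 without. Of the 179 lower features, 105 or 58.7% were highest in the same pair of libraries, as were both of these genes. Of the 274 higher features, 173 or 63.1% were lowest in that pair, the opposite direction. The part of library scaling or depth in the levels of CYP1A1 and AHRR was not tested.

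**Figure D4:**
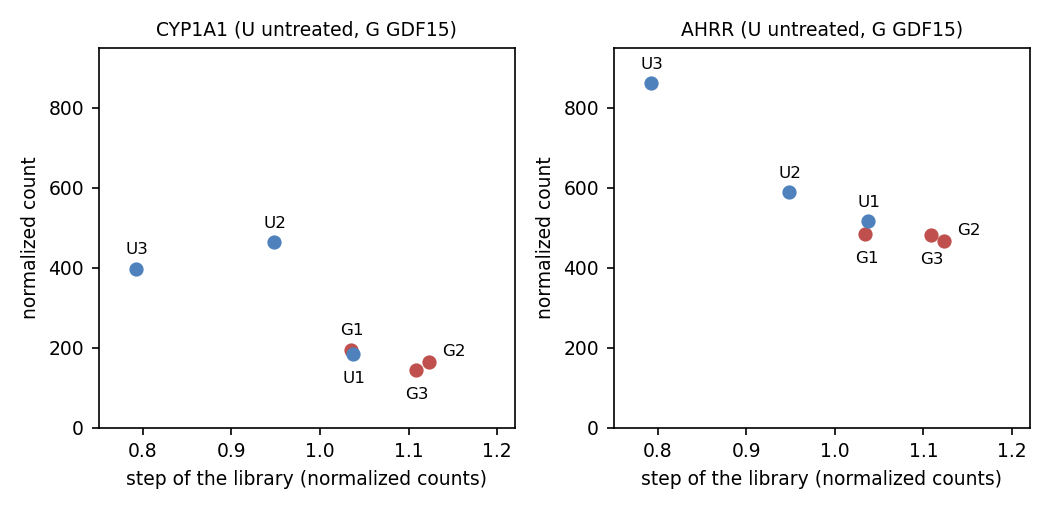
Normalized counts of CYP1A1 (left) and AHRR (right) against the step of each library, the normalized count of which all its values are whole multiples (U untreated in blue, G GDF15 in red, with the replicate number). The 2 untreated libraries with steps of 0.948 and 0.792 hold the highest levels of both genes, and the 4 libraries with steps from 1.03 to 1.12 lie together.

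Other values of the series bear on these libraries as a whole. Over all listed features the normalized counts added up to between 279332 and 470046 per library. The rest of each library was not analysed here, and full depth is unknown. The listed features included 1 ERCC spike-in RNA, which is added from outside the cells. It had between 13.3 and 19.7 normalized counts in the GDF15 libraries and between 26.9 and 38.9 in the untreated libraries. It was thus lower with GDF15 like CYP1A1 and AHRR. Its log2 fold change in the authors' deposited table was -0.89, beside -1.06 for CYP1A1 and -0.46 for AHRR. The part of what lowered the spike-in in the difference of these genes was not tested. The labels call the cells epithelial, whereas the series' design calls them stellate cells. None of the 10 stellate, 6 epithelial, 6 hepatocyte, 3 macrophage or 3 endothelial marker genes was among the listed features, so neither label could be checked here.

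Patterns over the 6 libraries were compared among 415 listed features with a gene name and a mean of at least 20 normalized counts, by Pearson's r of log2(normalized count + 1). These libraries share their group difference and their scaling, and the features were listed for that difference, so r is a description. SLC7A11, which imports cystine, was nearest to CYP1A1, with r = 0.97. It had 533, 551 and 524 normalized counts with GDF15 and 648, 1088 and 1093 without, high in untreated replicates 2 and 3 like CYP1A1. The next were TTC29, a gene of sperm flagella, at r = 0.97, the long non-coding RNA gene LINC01638 at 0.96, the chaperonin subunit gene CCT6B at 0.95 and the sister chromatid cohesion gene DSCC1 at 0.95. After subtraction of the group means, r of these 5 genes with CYP1A1 was between 0.89 and 0.95. AHRR itself had r = 0.78 with CYP1A1, rank 86 of the 415, and 0.55 after subtraction of the group means.

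STK32B, a kinase gene, was nearest to AHRR with r = 0.96. It had 243, 259.5 and 259.4 normalized counts with GDF15 and 261, 356 and 445 without, highest in untreated replicate 3 like AHRR. The endothelial early response gene APOLD1 followed at 0.93, the zinc finger gene ZNF839 at 0.91, LNP1 at 0.89 and SLC7A11 at 0.85. After subtraction of the group means, r of these 5 genes with AHRR was between 0.69 and 0.92. SLC7A11 was the only gene among the 5 nearest of both. CYP1A1 had rank 11 among the features nearest to AHRR.

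**Figure D5:**
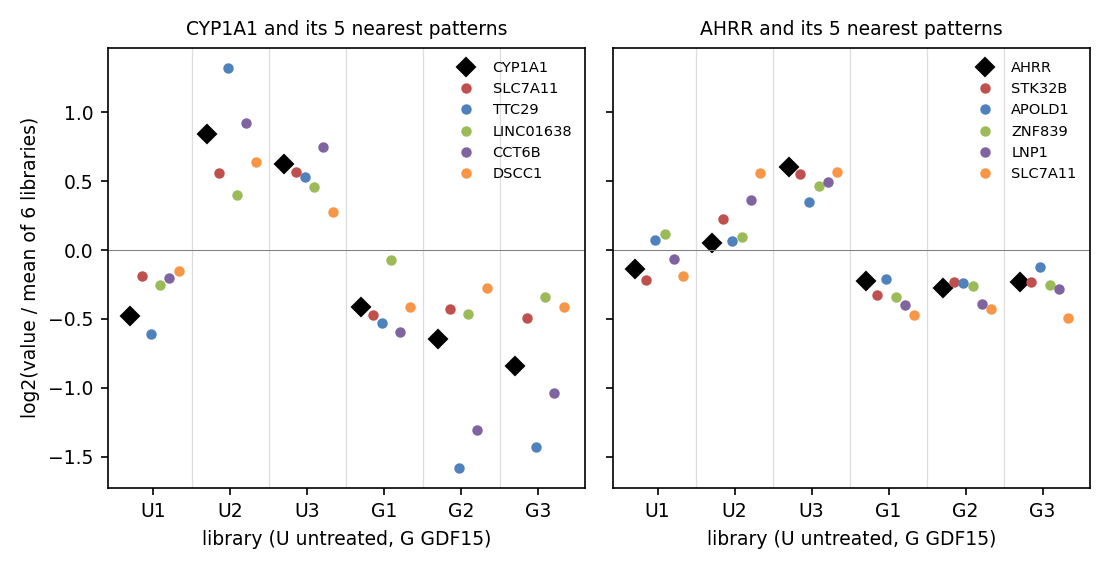
Log2 of each library's normalized count over the mean of the 6 libraries for CYP1A1 (left, black) and AHRR (right, black) with the 5 listed genes of the most similar pattern (coloured; U untreated, G GDF15, with the replicate number). The genes near CYP1A1 are high in untreated replicates 2 and 3, and those near AHRR are all highest in untreated replicate 3.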

How the data were processed

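The submitters' processing notes name build GRCh38 and, among tools, DESeq2, featureCounts, Subread (1.5.2), STAR (2.5.2b) and Trimmomatic (0.36). No order, settings, annotation or use of strand is stated, so reads of overlapping genes on opposite strands may be counted together. The deposited table holds the authors' log2 fold changes, their unadjusted and adjusted p-values, and a normalized signal per library, called normalized count. All deposited signal values were whole multiples of 1 step per library within 0.001 of a step. Only features with an unadjusted p under 0.05 are in it, so depth is unknown and intervals for counting error were left out. All 6 libraries were matched to columns by name, which left 0 columns unmapped.

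Means, SDs (n = 3), folds and ratios were computed with Python 3.11.15, pandas 2.3.3 and numpy 2.4.6, and plots with matplotlib 3.10.9. Limma 3.58.1 in R 4.3.3, tested on simulated data, was fitted to all 453 listed features on log2(normalized count + 1), a scale that understates folds of low genes. Planned count tests were not run, because the values are normalized and whether a step is 1 read was not established. Gene models were those of GENCODE 29 and promoter windows those of RefSeq, both on GRCh38. Both genes, the 8 pathway lists and all tests were chosen with earlier results of these data known. A further gene of the lists is not reported here. Genes given with values beside both were, by rule, any other listed members of the lists, of which there were 0, and for each of the 2 genes the 5 features with the highest r, without those on chromosome Y. Unlisted genes are named without values, as examples of the lists. Alternatives were pseudocounts of 0.1, 1 and 5, the median, other scalings, a minimum mean of 10, the replicate number as a block, and each library left out once.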

Additional observations from a re-analysis of the deposited data

How the results depend on the processing

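CYP1A1 and AHRR were lower with GDF15 under every alternative run, which their listing as lower already favours. For AHRR, whose groups did not overlap, dropping a library, the median or a pseudocount could not have reversed the direction. Without single libraries the log2 ratio of means ran from -1.36 to -0.80 for CYP1A1 and from -0.60 to -0.21 for AHRR, and the difference of their log2 ratio from -0.79 to -0.22. The limma log2 fold change ran from -1.36 to -0.70 for CYP1A1 and from -0.57 to -0.20 for AHRR. With the median of the libraries the log2 ratio was -1.27 for CYP1A1 and -0.29 for AHRR. Scaling within the listed features, by trimmed mean of M-values or by median of ratios, shifted their median log2 ratio by -0.14 and -0.20. It gave -1.21 and -1.31 for CYP1A1 and -0.60 and -0.66 for AHRR. Before this scaling the median log2 ratio of the listed features was 0.47, with 274 higher and 179 lower. Scaling within such a set pulls log2 ratios down, so the larger differences of both genes are no check of their direction. A minimum mean of 10 removed no feature.

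Same-numbered libraries had correlations of their deviations of 0.11, 0.22 and -0.05 over the listed features. Across the groups, libraries numbered 1 and 2 correlated best with their own number, and those numbered 3 did not. Whether a number marks a shared culture or day was not established. Between same-numbered libraries 1, 2 and 3, the CYP1A1 log2 ratio of GDF15 over untreated was 0.07, -1.49 and -1.46. CYP1A1 was thus slightly higher with GDF15 in the libraries numbered 1. For AHRR these log2 ratios were -0.09, -0.33 and -0.84. The replicate block left the limma fold changes at -0.96 and -0.42. It took the limma count of higher features at an unadjusted p under 0.05 from 104 to 161 of the 453 listed. The count of lower features went from 55 to 68. Every listed feature already had an unadjusted p under 0.05 by the authors' values of these libraries, so the counts are only a description. Without single libraries these counts ran from 55 to 126 and from 24 to 66, with 55 higher without untreated replicate 2, 57 without untreated replicate 3, and 26 and 24 lower without GDF15 replicates 2 and 3. Without both GDF15 replicate 1 and untreated replicate 2 the higher count was 66. Of the 5 genes nearest to each member, 4 for CYP1A1 and 3 for AHRR were again among the nearest 5 by deviations from the group means, and 0 and 0 by Spearman's rho, whose values over 6 libraries are often tied. The cause of these moves was not tested. The absence of unlisted features limits every statement on the pathway.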
